A study of Mus musculus with 9 samples.

Results

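The natriuretic peptide system was followed through the growth of the mouse heart after birth by 7 genes: the peptide genes Nppa, Nppb and Nppc, the processing protease gene Corin and the receptor genes Npr1, Npr2 and Npr3. They were chosen by name from the 19938 genes that have a probe set with a single gene symbol, and each of the 7 has 1 such probe set. Total RNA from the heart muscle of C57BL/6 mice was hybridised to Affymetrix Mouse Gene 1.0 ST arrays at 3 ages, 24 hours, 7 days and 10 weeks, with 3 arrays at each age and 9 in all. No treatment or genotype is named in the labels, so all groups are wild-type animals of that inbred strain as far as the labels say, and the series asks how the transcripts of the postnatal heart differ between these ages. The labels do not say whether replicates came from separate animals, and each p-value therefore measures only the spread between these arrays.

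Natriuretic peptides are hormones that lower blood pressure and blood volume. Heart muscle cells release atrial natriuretic peptide, encoded by Nppa, and B-type natriuretic peptide, encoded by Nppb, when the chamber wall is stretched; C-type natriuretic peptide, encoded by Nppc, comes mainly from endothelium and other tissues. Corin, a serine protease on the surface of heart muscle cells, cuts the precursor of atrial natriuretic peptide. The receptor encoded by Npr1 is a guanylyl cyclase that answers the 2 cardiac peptides with cyclic GMP, the one encoded by Npr2 is the guanylyl cyclase for C-type peptide, and the one encoded by Npr3 has no cyclase and removes peptides from the circulation. Nppa is known for high expression in the whole fetal heart and for its later restriction to the atria, and both cardiac peptide genes are used as signs of load on the ventricle.

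Nppa and Nppb lie next to each other on chromosome 4, with no other measured gene between them, and the results below turn on the way their signals parted with age. The 250 bases before the start that RefSeq's promoter sequences give for each (build GRCm38.p6, both on the plus strand) were therefore searched. The whole window is shown for Nppa, chr4:148000472-148000721. RefSeq's gene record of Nppb begins farther upstream than that start, and the last 114 bases of its window lie inside the record. Only the 27 bases that hold all its matches are shown for Nppb, chr4:147985795-147985821, and all of them lie inside the gene record. Capitals mark each match to any of 7 motifs, searched on both strands: AGATAA for the GATA factors, then TCACAC for the T-box factors, TNAAGTG for the factor Nkx2-5, CATTCC for the M-CAT element, CANNTG for the E-box, and finally the CArG box and the MEF2 site. No matches overlap.
Nppa: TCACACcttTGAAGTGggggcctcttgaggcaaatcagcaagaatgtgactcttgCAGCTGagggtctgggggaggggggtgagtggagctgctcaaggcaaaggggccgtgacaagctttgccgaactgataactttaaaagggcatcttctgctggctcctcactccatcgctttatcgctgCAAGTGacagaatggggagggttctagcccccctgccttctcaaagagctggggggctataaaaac
Nppb: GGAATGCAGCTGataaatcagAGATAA

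The Nppa window held a T-box match 250 to 245 bases before the start, an Nkx2-5 match at 241 to 235, and E-box matches at 195 to 190 and at 66 to 61. The Nppb window held an M-CAT match on the opposite strand at 105 to 100, directly followed by an E-box match at 99 to 94, and a GATA match at 84 to 79. Counted from the beginning of the gene record, all 3 Nppb matches are downstream and not upstream. Among 32851 promoter windows of the same length, 12.3% held the T-box letters, 10.1% the Nkx2-5, 12.6% the M-CAT, 9.99% the GATA and 66.2% the E-box letters. The CArG box was found in 1.47% and the MEF2 site in 2.92% of these windows, and in neither of these genes. Of the other 5 genes, Corin, Npr2 and Npr3 had 1 E-box match each, and the windows of Nppc and Npr1 held none of the 7 motifs. A match is a run of letters and not a measured site, and letters outside these windows were not searched. Of the forms that GATA factors bind, only AGATAA was searched. The letters TGATAA stand in the Nppa window and, across the end of the E-box match, in the Nppb stretch, and were not counted as a match.

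The heart label was borne out by its markers. All 6 cardiomyocyte markers (Tnnt2, Actc1, Myh6, Tnni3, Ryr2 and Pln) lay between 10.58 and 13.34 on the log2 scale on every array. Other features set arrays or ages apart. At 7 days Ucp1, the uncoupling protein gene of brown fat, was at 4.30 on replicate 1, 11.23 on replicate 2 and 9.27 on replicate 3. At 10 weeks Myl7, an atrial myosin light chain gene, was at 4.70, 8.43 and 7.52. The Y-linked gene Eif2s3y ran from 6.06 to 7.70 on the younger arrays and from 2.87 to 3.30 on the 10-week ones. The X-linked gene Xist ran from 8.30 to 9.37 at 24 hours, 8.26 to 9.56 at 7 days and 8.69 to 8.97 at 10 weeks. Age and sex therefore cannot be told apart in comparisons with 10 weeks. Whether the younger arrays held RNA of both sexes was not tested. Among all genes tested, 10.1% passed an adjusted p of 0.05 between 24 hours and 7 days, 35.9% between 7 days and 10 weeks and 40.1% between 24 hours and 10 weeks. Precision is limited by the number of arrays, since hybridisation gives no reads to count.

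Between 24 hours and 7 days none of the 7 genes passed (limma, adjusted p under 0.05; 2 had an unadjusted p under 0.05, Corin and Npr3). Between 7 days and 10 weeks 6 of 7 passed, against the 35.9% of all genes given above. Brighter genes passed more often: of 10496 genes with an age mean above the median signal, fitted alone, 6246 passed in this interval. The 6 that passed are among these brighter genes. Nppb, Corin and Npr2 were higher at 10 weeks, where 17.0% of all genes were, and Nppa, Npr1 and Npr3 were lower, where 18.9% were. This balance of all genes depends on the scaling: 3388 were higher and 3777 lower as deposited, and 5247 higher and 3307 lower with median-centred arrays. In the first week it was 1050 higher and 959 lower as deposited, and 888 and 1247 with centring. The 7 genes stayed at 3 higher and 3 lower in the second interval with centring. Over the whole interval from 24 hours to 10 weeks 4 of 7 passed, with Nppb and Npr2 higher and Nppa and Npr3 lower. Nppb in the second interval was the only change of at least 2-fold among the 7 genes in the 3 comparisons. Of all genes 0.426% rose and 0.201% fell at least 2-fold in the first interval, 2.07% and 2.98% in the second, and 3.0% and 3.39% from 24 hours to 10 weeks. The median difference of the 7 genes was -0.125 in the first interval, 0.048 in the second and 0.062 from 24 hours to 10 weeks, beside -0.00173, 0.0391 and 0.0381 over all genes. The second and the whole-interval comparison share the 10-week arrays, and the first and the second share the 7-day arrays.

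**Figure D1:**
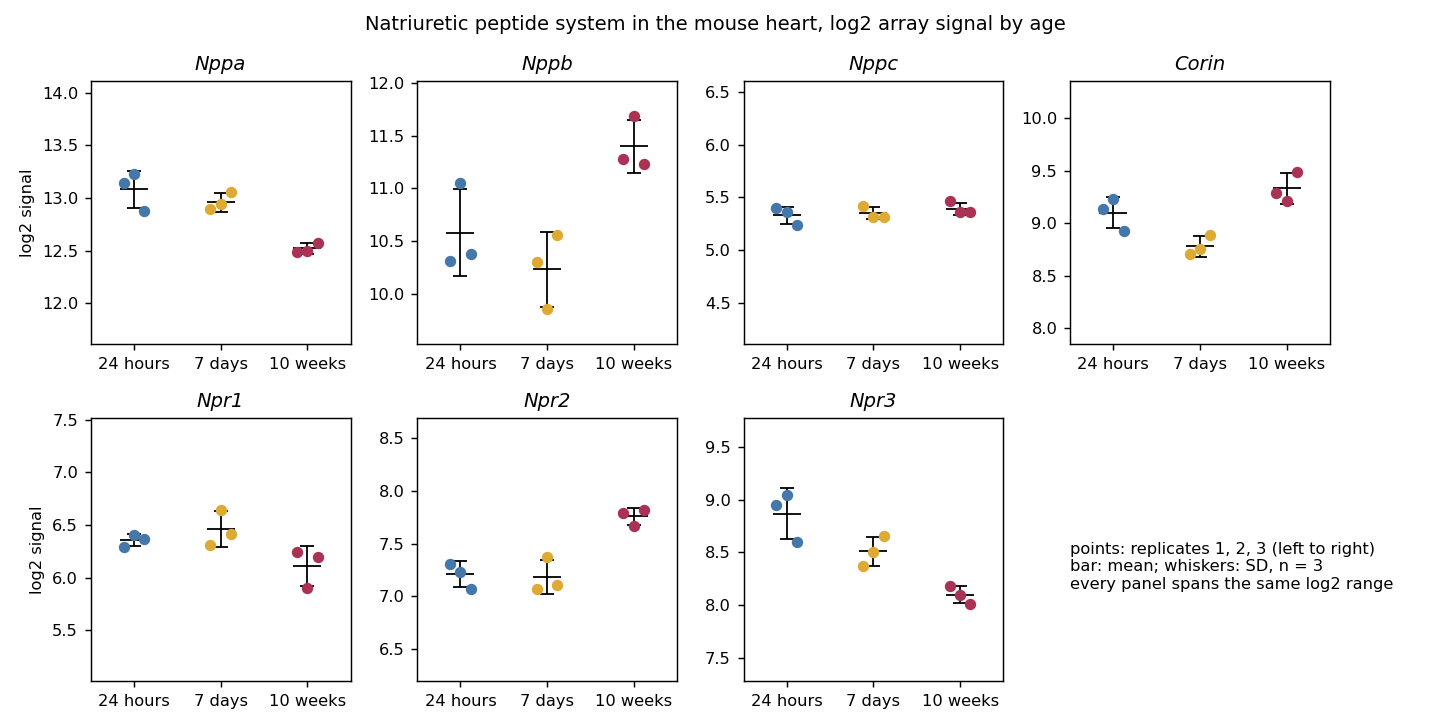
Log2 array signal of the 7 genes at 24 hours, 7 days and 10 weeks. Points are the 3 replicates of an age, the bar is their mean and the whiskers are the SD; each panel spans the same range of log2 units. Nppb, Npr2 and Corin had their highest mean at 10 weeks, Nppa, Npr1 and Npr3 their lowest, and Nppc lay between 5.24 and 5.47 on every array.

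Nppa encodes the precursor of atrial natriuretic peptide. Its log2 signal was 13.14, 13.23 and 12.88 at 24 hours (replicates 1, 2 and 3 in that order, here and below), 12.89, 12.94 and 13.06 at 7 days, and 12.49, 12.50 and 12.57 at 10 weeks. The 24-hour and 7-day arrays overlapped, and all 3 of the 10-week arrays lay below all the younger ones. The first-week difference was -0.12 ± 0.08 (SE; adjusted p = 0.463; 95% confidence interval -0.30 to 0.05). Nppa then fell by 0.44 between 7 days and 10 weeks, to 12.52 ± 0.05 (SD, n = 3) from 12.96 ± 0.09, a 1.36-fold change (adjusted p = 0.00146). Over the whole interval it fell by 0.57 (adjusted p = 2.28e-04). Without 7-day replicates 2 and 3, the arrays with brown fat transcripts, the second-interval difference was -0.37 and did not pass (adjusted p = 0.0691). Here and below, where 1 array is left at an age, the fit takes the spread from the other ages and assumes that the lone array varies like them.

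These Nppa signals lay near the top of the scale, where an array can understate a difference. The highest gene signal on any array was 13.25 to 13.39, and Nppa was 0.10 to 0.85 below the highest of its own array. How much such compression bears on the fall of Nppa was not tested.

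The small fall of Nppa can be set beside the atrial markers, since atrial tissue is its main known source in the adult. Of 8 atrial markers 6 fell between 7 days and 10 weeks and none passed as higher, with a median difference of -1.714. Of all genes 17.0% rose and 18.9% fell. The atrial marker Kcna5 went the other way, by 0.26 in this interval (limma, adjusted p = 0.102) and by 0.50 from 24 hours to 10 weeks (adjusted p = 0.00499). The log2 of the summed signal of all 8 was 12.42 to 12.91 on the 7-day arrays and 8.51 to 10.60 on the 10-week ones. Bmp10, an atrial growth factor gene, fell by 5.30, Myl7 by 4.16 and Myl4, the other atrial light chain gene, by 3.15 (adjusted p = 0.00262). In a tissue sample fewer cells of a type, less RNA per cell and a different share of atrium in the sample cannot be told apart.

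Some atrial markers also differed widely among the 10-week arrays. Myl7 spanned 3.73 over these 3 arrays, Myl4, at 6.43, 9.77 and 8.83, spanned 3.33, Dkk3 1.21 and Sln 0.86. Others did not: Bmp10 spanned 0.28, Gja5 lay between 5.95 and 6.17, Kcna5 between 6.01 and 6.39, and the dim Nr2f1 between 4.53 and 4.56. Nppa spanned 0.09, which the top of the scale can also compress, so that its spread cannot be set against theirs. With replicate 1, the array with the lowest Myl7 and Myl4, as the only 10-week array, a setting chosen after seeing the data, the Nppa difference from 7 days was -0.47 (adjusted p = 0.0322). The part of atrial tissue in the fall of Nppa was not tested.

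**Figure D2:**
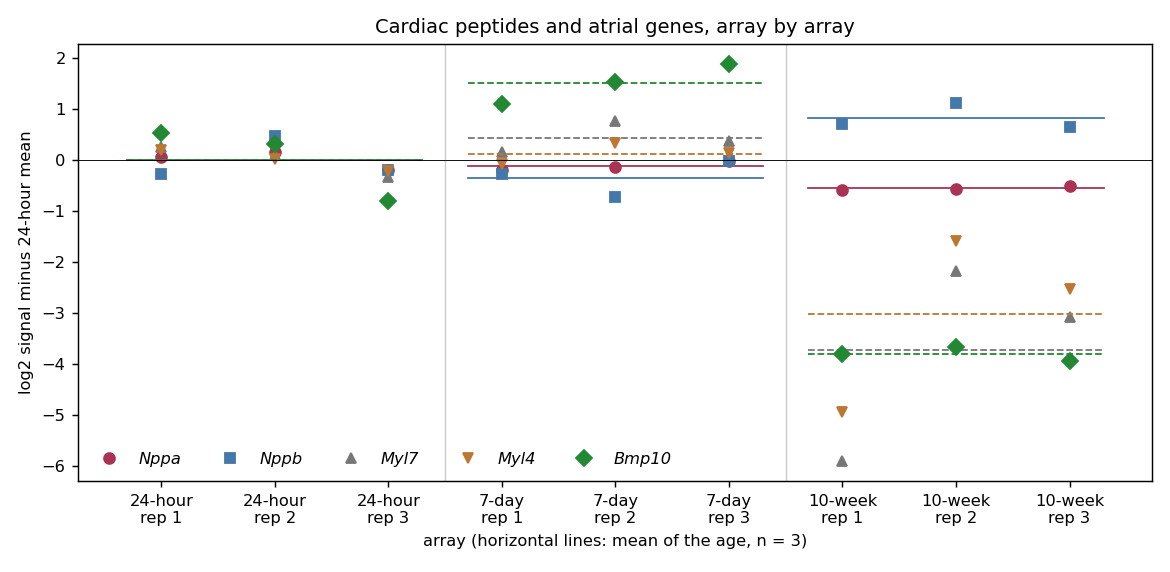
Log2 signal of Nppa, Nppb and the atrial genes Myl7, Myl4 and Bmp10 on each array, minus the gene's own 24-hour mean. Points are arrays and horizontal lines are the means of an age (n = 3; dashed for the atrial genes). At 10 weeks the Nppb points lie above and the Nppa points below their 24-hour means, and the Myl7 points span 3.73 and the Bmp10 points 0.28.

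Nppb encodes the precursor of B-type natriuretic peptide. It measured 10.31, 11.05 and 10.38 at 24 hours, 10.30, 9.85 and 10.56 at 7 days, and 11.28, 11.69 and 11.23 at 10 weeks. Each 10-week array was above each younger one, and the younger ages overlapped. In the first week the difference was -0.35 ± 0.22 (SE; adjusted p = 0.450), with an interval from -0.83 to 0.14. Nppb then rose by 1.17 ± 0.22, or 2.24-fold, from 10.23 ± 0.36 to 11.40 ± 0.25 (SD, n = 3; adjusted p = 0.00175). With 10-week replicate 1 alone at that age, the setting chosen after seeing the data, the difference was 1.05 and did not pass (adjusted p = 0.0584).

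Against 24 hours the rise of Nppb was 0.82 (adjusted p = 0.0122), the gap between the groups being 0.18. It did not pass without 24-hour replicate 1 (0.68, adjusted p = 0.0570), without 24-hour replicate 3 (0.72, 0.0541) or without 10-week replicate 2 (0.68, 0.0557). The mean log2 signal of the 8 atrial markers was 5.33, 6.50 and 6.24 at 10 weeks, highest on replicate 2 as Nppb was. At 24 hours this mean was highest on replicate 1 and at 7 days on replicate 2, where Nppb was not. The part of atrial tissue in the Nppb values was not tested. Nppb was the most variable of the 7 genes between arrays of 1 age. Its SD within ages, 0.344, was larger than that of 99.3% of all genes, against 69.1% for Nppa.

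The neighbouring peptide genes thus changed unequally. On each array the Nppa signal minus the Nppb signal was taken, as a measure of change only, since levels of different probe sets cannot be compared. It was 2.83, 2.18 and 2.50 at 24 hours, 2.59, 3.09 and 2.50 at 7 days, and 1.20, 0.82 and 1.34 at 10 weeks. The younger ages overlapped and the 10-week values lay below all of them. An exact permutation test over all 1680 assignments of the 9 arrays to the ages gave a two-sided p = 0.0179, or 0.0357 after Benjamini-Hochberg adjustment over the 2 pairs of genes tested this way. For a pair of ages the smallest exact p is 0.1, which was reached for 10 weeks against 7 days (change -1.61) and against 24 hours (-1.39). Without 10-week replicates 2 and 3 together the exact p over the ages was 0.0714.

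The 5 nearest measured genes on either side of Nppa and Nppb, taken from the order in RefSeq, were read in the same fit. Between 7 days and 10 weeks 4 of these 10 rose and 1 fell, where 17.0% and 18.9% of all genes did. Mfn2, which encodes a mitochondrial fusion protein, rose by 0.44, the retrovirus restriction gene Fv1 by 0.68, Agtrap, an angiotensin receptor-associated protein gene, by 0.32 and the F-box gene Fbxo6 by 0.50. The collagen lysyl hydroxylase gene Plod1 fell by 0.34. Clcn6, the chloride transporter gene next to Nppa, measured 6.08 at 7 days and 6.12 at 10 weeks (adjusted p = 0.749). In the first week 1 of the 10 passed, beside 10.1% of all genes. This was Fv1, which rose by 0.44. These genes were named by position and not by how they moved.

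Nppb alone had age means that span at least 1 on the log2 scale, and the genes most like it were found by the root mean square distance between centred log2 signals over the 9 arrays. The nearest was Sesn1, a sestrin gene, at a distance of 0.189, followed by the Kruppel-like factor gene Klf15 at 0.202 and Asb11, an ankyrin repeat and SOCS box gene, at 0.226. Sesn1 measured 8.29, 8.82 and 8.34 at 24 hours, 8.43, 8.18 and 8.22 at 7 days, and 9.24, 9.46 and 9.20 at 10 weeks. It shared with Nppb the highest array of the 24-hour and 10-week groups, replicate 2, but not that of the 7-day group. These genes were picked by the same 9 signals, so a likeness on single arrays is no further evidence.

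Genes known for the fetal and load-responsive programme, to which both cardiac peptide genes are usually counted, moved in both directions. Of 7 listed, 4 rose and 2 fell between 7 days and 10 weeks, and 3 rose and 3 fell between 24 hours and 10 weeks. Of all genes 17.0% rose and 18.9% fell in the former comparison, and 19.5% and 20.6% in the latter. Ankrd1, a load-responsive ankyrin repeat gene, went from 12.28 to 12.77 in the second interval, the skeletal actin gene Acta1 from 8.51 to 10.53, and the Xin repeat gene Xirp2 from 7.83 to 10.44. Myh7, the slow myosin heavy chain gene, rose from 9.16 to 11.01 in that interval after its fall from 12.26. Tnni1, the fetal troponin I gene, went from 11.09 to 5.09.

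Nppc encodes the precursor of C-type natriuretic peptide. Its signal was 5.24 to 5.40 at 24 hours, 5.31 to 5.42 at 7 days and 5.36 to 5.47 at 10 weeks, and all ages overlapped. That is just below the median signal of all genes, 5.57. The file gives no detection flags, so a difference in a dim transcript could go unseen. The differences were 0.01, 0.05 and 0.06, with adjusted p of 0.954, 0.622 and 0.506. Over the whole interval the confidence interval ran from -0.09 to 0.21.

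Corin encodes the protease that activates atrial natriuretic peptide. It measured 9.13, 9.23 and 8.93 at 24 hours, 8.71, 8.75 and 8.89 at 7 days, and 9.29, 9.21 and 9.49 at 10 weeks. The 7-day arrays were the lowest, and they did not overlap with either other age. The first-week difference was -0.31 ± 0.09 (SE) and did not pass (adjusted p = 0.0660). Corin then rose by 0.55, or 1.46-fold (adjusted p = 9.48e-04). Thus at 10 weeks Corin was above and Nppa below its 7-day signal.

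The net difference of Corin between 24 hours and 10 weeks was 0.24 (adjusted p = 0.0709), and its sides of the threshold were sensitive in both directions of time. After median centring of the arrays the first-week fall was 0.34 (adjusted p = 0.0405) and the net difference 0.26 (adjusted p = 0.0415). The first-week fall also passed without 24-hour replicate 3 (0.39, adjusted p = 0.0392) and without 10-week replicate 3 (0.31, adjusted p = 0.0399), and the net difference without 24-hour replicate 2 (0.30, 0.0453) or 10-week replicate 2 (0.30, 0.0470).

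**Figure D3:**
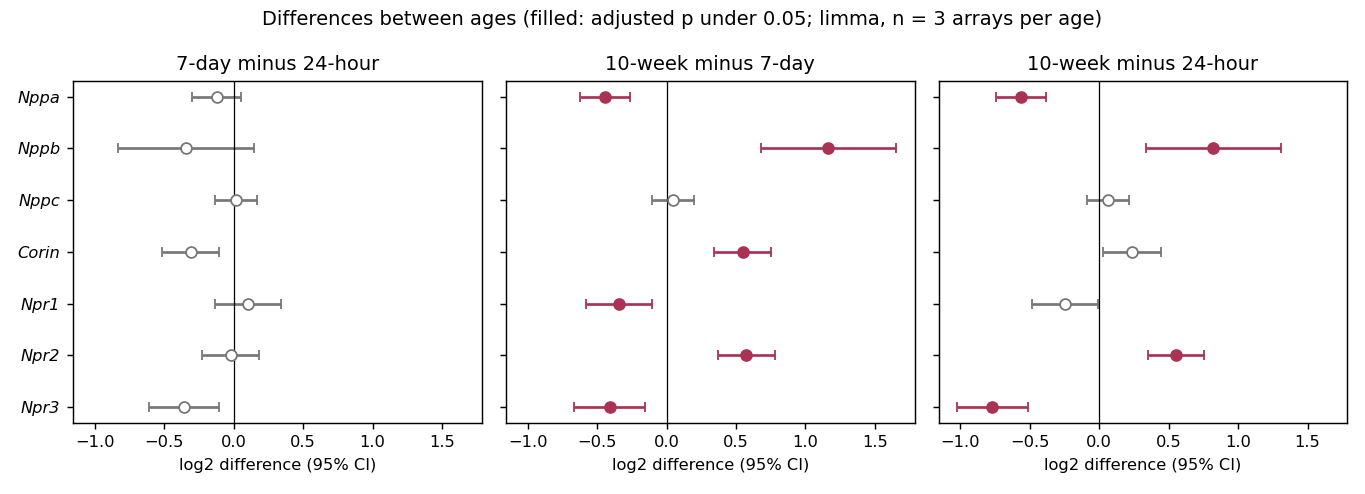
Log2 differences between ages for the 7 genes, from limma on 3 arrays per age, with 95% confidence intervals; filled points passed an adjusted p of 0.05. In the first week no point is filled, and between 7 days and 10 weeks the 3 filled points above 0 are Nppb, Corin and Npr2 and the 3 below 0 are Nppa, Npr1 and Npr3.

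Of the receptors, Npr1 encodes the guanylyl cyclase for the cardiac peptides. It measured 6.29, 6.41 and 6.37 at 24 hours, 6.31, 6.64 and 6.42 at 7 days, and 6.24, 5.90 and 6.20 at 10 weeks. The 10-week arrays were below all others, by a gap of 0.08 from the 7-day and 0.05 from the 24-hour group. The second-interval fall was 0.35 ± 0.11 (SE; adjusted p = 0.0275). It did not pass without 7-day replicate 2 (-0.25, adjusted p = 0.106), without 7-day replicate 3 (-0.36, 0.0569) or without 10-week replicate 2 (-0.24, 0.0888). Nor did it pass with quantile normalization (-0.27, 0.0654), with only the 6 arrays of these ages (0.0682) or with replicate number as a block (0.0515).

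The highest Npr1 signal, 6.64, was that of 7-day replicate 2, the array with the most fat transcripts. The log2 of the summed signal of 6 fat markers was 8.45 to 11.83 on the 7-day arrays, 8.19 to 8.36 at 24 hours and 8.36 to 8.78 at 10 weeks. The mean of their log2 signals was 4.85 to 7.49, 4.76 to 4.81 and 4.95 to 5.50 in the same order. From 24 hours to 10 weeks 1 of the 6 passed as higher, Retn, by 1.68 (limma, adjusted p = 0.00837), and 0 as lower. Natriuretic peptide receptors are known in fat, and the part of fat RNA in the 7-day and 10-week values was not tested. The array of 7-day replicate 2 also stood apart for a liver and a lung marker. Alb was at 7.81 there against 3.89 and 3.77 on the other 7-day arrays, and Scgb1a1 at 6.83 against 2.49 and 2.62. At 24 hours Alb was at 5.27, 4.16 and 6.04 and Scgb1a1 at 5.83, 2.58 and 2.49. Their part was not tested either. Without 7-day replicates 2 and 3 the Npr1 difference was -0.20 (adjusted p = 0.398).

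Npr2 encodes the guanylyl cyclase for C-type natriuretic peptide. It measured 7.31, 7.23 and 7.07 at 24 hours, 7.07, 7.37 and 7.11 at 7 days, and 7.79, 7.67 and 7.82 at 10 weeks. The younger ages overlapped, the highest of their values was on 7-day replicate 2, and every 10-week array was higher. The first-week difference was -0.02 ± 0.09 (SE; adjusted p = 0.947). Npr2 then rose by 0.58, or 1.49-fold (adjusted p = 5.95e-04), and by 0.55 over the whole interval (adjusted p = 6.56e-04). Both calls held when any 1 array was left out. The gene of the C-type receptor thus rose while Nppc showed no difference that passed. In the second interval 4 of 6 fibroblast markers fell and none rose, while 1 of 6 mural markers rose and 2 fell. Of all genes 17.0% rose and 18.9% fell in that interval. From 24 hours to 10 weeks 3 fibroblast markers rose and 2 fell, and 3 mural markers rose and 1 fell. Of all genes 19.5% rose and 20.6% fell over that interval. Their part in the rise of Npr2 was not tested.

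Npr3 encodes the clearance receptor, which in the heart is known from the endocardium. It measured 8.95, 9.05 and 8.60 at 24 hours, 8.37, 8.50 and 8.66 at 7 days, and 8.18, 8.10 and 8.01 at 10 weeks. The 10-week arrays lay below all others, and the younger ages overlapped through 24-hour replicate 3. The first-week difference was -0.36 ± 0.11 (SE; adjusted p = 0.0824), and it passed without 24-hour replicate 3 (-0.49, adjusted p = 0.0138). Npr3 fell by 0.41 in the second interval (adjusted p = 0.0169), which did not pass without 7-day replicate 3 (-0.34, 0.0735) or 10-week replicate 3 (-0.37, 0.0564). From 24 hours to 10 weeks it fell by 0.77, or 1.70-fold (adjusted p = 3.06e-04), and this held without any 1 array.

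Markers of the endocardium and of all endothelium were read beside Npr3. Of 6 endocardial markers 1 rose and 3 fell from 24 hours to 10 weeks (19.5% and 20.6% of all genes did). Among them the cadherin gene Cdh11 went from 9.33, 9.39 and 8.97 to 6.61, 6.75 and 6.90, while the cytokine-like gene Cytl1 went from 8.54, 8.47 and 8.14 to 9.61, 10.05 and 10.07. The log2 of the summed signal of the 6 was 10.20 to 10.51 at 24 hours and 10.18 to 10.52 at 10 weeks, when Cytl1 was the brightest of them. The mean of their log2 signals was 7.07 to 7.24 at 24 hours and 6.54 to 6.69 at 10 weeks. Of 8 endothelial markers 2 rose and 4 fell over the same interval, with a log2 summed signal of 12.32 to 12.33 at 24 hours and 12.11 to 12.26 at 10 weeks. Their part in the fall of Npr3 was not tested.

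The receptor genes were also compared within arrays. Npr1 minus Npr3 was -2.66, -2.64 and -2.23 at 24 hours, -2.06, -1.86 and -2.24 at 7 days, and -1.94, -2.21 and -1.81 at 10 weeks. The ages overlapped at their edges, and the exact permutation test over the ages gave p = 0.0786 (two-sided; 0.0786 after adjustment). Without 24-hour replicate 3 it gave an exact p = 0.0321. An unequal change of these receptors was therefore not shown with all arrays.

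The other genes of the pathway were listed by role, and 43 of 44 were measured. Of these, 9 rose and 9 fell in the first week (5.27% and 4.81% of all genes did). Between 7 days and 10 weeks 3 rose and 20 fell (17.0% and 18.9% of all genes). Between 24 hours and 10 weeks 6 rose and 21 fell (19.5% and 20.6% of all genes). The first-week total of 18 was 11, 10 and 9 without 24-hour replicate 1, 2 or 3, 9 without 7-day replicate 3, and 5 without 7-day replicates 2 and 3. With median-centred arrays 7 rose and 19 fell in the second interval, and with quantile normalization 5 rose and 18 fell. The list medians were -0.013, -0.132 and -0.296. Among genes above the median signal, fitted alone, 21 of 38 pathway genes passed in the first week and 23 in the second interval. Of all 10496 such genes 2361 and 6246 passed.

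On the side of ligands and proteases 7 genes were measured. Pcsk6, a proprotein convertase known to activate corin, measured 6.81, 6.62 and 6.82 at 24 hours, 8.21, 8.10 and 8.45 at 7 days, and 8.27, 8.12 and 8.28 at 10 weeks. It rose by 1.50 in the first week, or 2.83-fold (adjusted p = 1.34e-05), and its second-interval difference was -0.03 (adjusted p = 0.826). Its rise came in the interval in which the Corin difference was negative and did not pass. Furin, the convertase that cuts the precursors of the B-type and C-type peptides, fell by 0.28 in the first week.

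Peptide-degrading enzymes went in both directions. Mme, which encodes neprilysin, rose by 0.86 in the first week (limma, adjusted p = 0.0494, just under the threshold). From 24 hours to 10 weeks it rose by 1.05 (adjusted p = 0.00519). Its 7-day values were 5.86, 7.00 and 6.03, with the peak on replicate 2, the array that stood apart for fat markers, Alb and Scgb1a1. Ide, which encodes insulin-degrading enzyme, fell by 0.51 and then by 0.57, to 8.90 from 9.98 at 24 hours (adjusted p = 4.49e-06 over the whole interval). Ostn, which encodes osteocrin, a ligand of the clearance receptor, lay between 2.81 and 3.21 on all arrays, a dim signal, and passed in no comparison.

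On the side of cyclic GMP 20 genes were measured. In the first week 7 rose and none fell (5.27% and 4.81% of all genes did). In the second interval 2 rose and 9 fell (17.0% and 18.9% of all genes). Genes that went up and then down were Gucy1a1 and Gucy1b1, the subunits of the nitric oxide-sensitive guanylyl cyclase, Pde5a, a phosphodiesterase that breaks down cyclic GMP, and Pde1a. Pde5a measured 6.47, 6.31 and 6.31 at 24 hours, 6.62, 7.13 and 6.70 at 7 days, and 5.56, 5.48 and 5.66 at 10 weeks, a fall of 1.25 in the second interval (adjusted p = 1.88e-05). Its highest value was again on 7-day replicate 2.

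The protein kinase gene Prkg1, whose product is the main effector of cyclic GMP in muscle, fell by 0.78 between 7 days and 10 weeks (adjusted p = 1.26e-04). Pde3b, a phosphodiesterase that cyclic GMP inhibits, was lower at 10 weeks than at 24 hours by 1.07, at 5.30, 6.02 and 6.16 on the 10-week arrays. Gucy1a2, another cyclase subunit gene, rose by 1.09 and Rgs4, a regulator of G-protein signalling and also a pericyte gene, by 1.32 over the same interval. Of 6 mural markers 3 rose and 1 fell in that interval (19.5% and 20.6% of all genes did). Their part in the rise of Rgs4 was not tested.

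The listed transcription factors, known to act on Nppa or Nppb, went 1 way where they passed. Of 16, 6 fell and none rose in the first week. In the second interval 9 fell and none rose, and from 24 hours to 10 weeks 10 fell and none rose. Of all genes 4.81%, 18.9% and 20.6% fell in these comparisons, and 5.27%, 17.0% and 19.5% rose. The list was drawn up with earlier results of these data known, and its direction is no independent evidence. Factors outside it can differ. Klf15, named above for its likeness to Nppb and not listed, fell by 0.57 in the first week (limma, adjusted p = 0.0349). It then rose by 1.49 in the second interval (adjusted p = 2.09e-05). Hey2, a Notch-responsive repressor of atrial genes in the ventricle, went from 9.44 to 7.57 and then to 6.09. Between 24 hours and 10 weeks Gata6 fell by 1.61, Tbx20 by 1.43 and Myocd, the coactivator of serum response factor, by 1.08.

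Of the factors whose motif letters stand in the sequences above, Gata4 measured 9.58, 9.71 and 9.70 at 24 hours and 9.16, 9.05 and 9.12 at 10 weeks and fell by 0.55. Tbx5 fell by 0.69 over the same interval. Nkx2-5 went from 7.67, 7.83 and 8.0 to 7.56, 7.77 and 7.27, which did not pass (adjusted p = 0.0766). Tead1, which binds the M-CAT motif, fell by 0.37 in the first week and measured 8.90, 9.09 and 9.30 at 10 weeks, against 9.23, 9.37 and 9.16 at 24 hours (adjusted p = 0.214). The silencer gene Rest, a known repressor of Nppa and Nppb in the ventricle, fell by 0.71 in the second interval and by 1.03 over the whole interval (adjusted p = 1.98e-05). Between 7 days and 10 weeks, the interval in which Nppb rose, no factor of this list passed as higher and 9 of 16 passed as lower (limma, adjusted p under 0.05). Tead1 was higher by 0.21 (adjusted p = 0.107), Tbx3 by 0.16 (0.0765) and Klf13 by 0.16 (0.124), none of which passed. The part of these factors in the rise of Nppb was not tested.

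**Figure D4:**
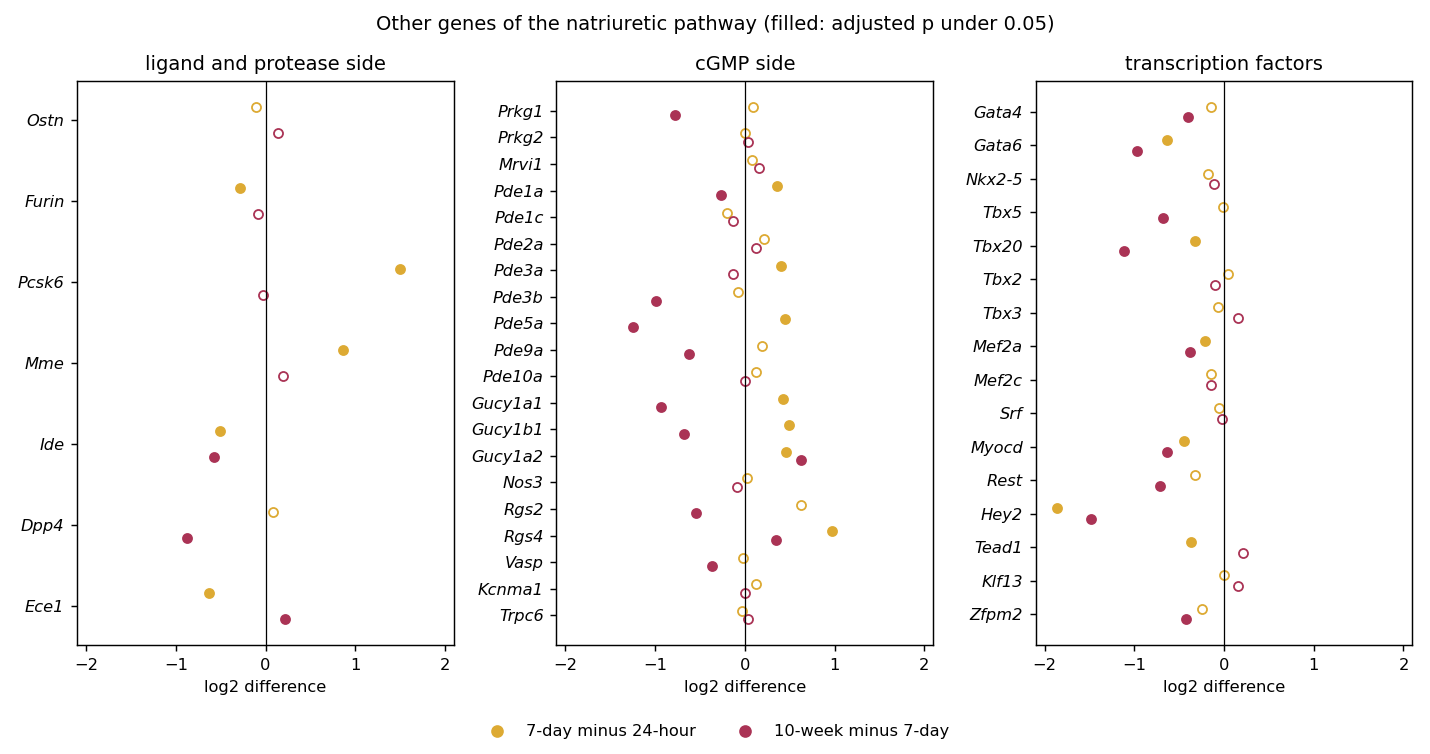
Log2 differences of the other pathway genes in the first week (7-day minus 24-hour) and in the second interval (10-week minus 7-day), by role; filled points passed an adjusted p of 0.05 (limma, n = 3 arrays per age). On the cyclic GMP side 7 genes rose in the first week and 9 fell in the second interval, and of the transcription factors 6 and 9 fell.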

How the data were processed

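The authors deposited log2 signals of 35556 features on 9 arrays. MAS5 5.0 is named in the submitters' processing notes, and how arrays were normalized against each other is not given in the sources used here. As the highest value, 13.58, exceeds 11.09, the largest natural log of a 16-bit reading, the base is 2. Array medians differ by 0.0485, and values were used as deposited. Features with 1 symbol (21789) were kept, 21698 matched by Entrez id, and the highest-mean one was taken for each of 19938 genes. Limma 3.58.1 (R 4.3.3) was fitted with 1 mean per age, eBayes and an intensity trend, with Benjamini-Hochberg adjustment over all genes. It was tested on simulated data. Exact permutation tests used Python 3.11.15.

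The 7 genes, the pathway lists and the marker lists were chosen with earlier results of these data known. Pathway genes are named where they differed at least 2-fold with an adjusted p under 0.05, and others for their role; the latter, and examples from marker lists, were chosen after their values were seen. Klk1 was not tested. Protein sequences were not used here. Between 7 days and 10 weeks 1 of 6 ventricular markers was higher and 1 lower (17.0% and 18.9% of all genes were). In that interval 0 of 4 lung markers passed, and 1 of 3 liver markers was lower. The array 7-day replicate 2 stood apart in the liver list, and in the lung list through Scgb1a1 alone. Among the 7-day arrays Sftpc (3.62) and Sftpb (4.24) were lowest there, and Sftpa1 (5.19) was highest by a small margin.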

Additional observations from a re-analysis of the deposited data

How the results depend on the processing

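Of 417 refitted differences of the 7 genes, 378 kept their direction and their side of the threshold, 18 lost and 12 gained an adjusted p under 0.05, and 9 changed sign, all of them differences that had not passed. The count of these genes passing in the first week was 0 as reported, 1 with arrays centred on their medians or with quantile normalization (Corin both times), and 2 with only genes above the median signal (Corin and Npr3); it was 0 to 2 when 1 array was left out. In the second interval it was 6, was 4 to 6 when 1 array was left out, and was 3 without 7-day replicates 2 and 3 and 3 without 10-week replicates 2 and 3, a setting chosen after seeing the data. The pathway count of the first week was 9 to 18 when 1 array was left out and 5 without 7-day replicates 2 and 3.

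The sign changes in the first week were Nppc with centred arrays (-0.0146) and quantile normalization (-0.0120) and without 24-hour replicate 3 or 7-day replicate 1 (-0.0303 to 0.0463 over all arrays left out), Npr2 without 24-hour replicate 1, 7-day replicate 1 or 7-day replicate 3 (-0.114 to 0.0316 over all arrays left out), and Npr1 without 7-day replicates 2 and 3 (-0.0442). In the second interval Nppc was -0.0266 without those 2 arrays. The exact p of Nppa minus Nppb was 0.0107 to 0.0321 when 1 array was left out and 0.0714 without 10-week replicates 2 and 3; that of Npr1 minus Npr3 was 0.0321 to 0.204. The causes were not tested, apart from the smaller number of arrays or genes that these settings use. The replicate numbers did not pair the arrays, with same-number correlations of deviations from -0.174 to 0.133. With the replicate block 0, 5 and 4 of the 7 genes passed in the 3 comparisons, and Npr1 in the second interval was the only call it changed.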

Other observations

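Within each age the array with the highest Nppb signal was also the one with the highest Ccn2, a matricellular gene of the load-responsive list: 24-hour replicate 2 (11.05 and 9.60), 7-day replicate 3 (10.56 and 8.98) and 10-week replicate 2 (11.69 and 9.18). Ccn2 was 8.94 and 9.03 on the other 24-hour arrays and 8.97 on the next 7-day array. Of the 7 genes of that list Ccn2 alone shared all 3 of the highest arrays with Nppb, and 542 of 19937 genes, or 2.72%, did so among all genes measured. This pattern was seen in the values and has no test.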
